A study of Mus musculus with 4 samples.

Results

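A set of 10 genes of bicarbonate, chloride, short-chain fatty acid and water transport were followed in the colonic mucosa of young adult and juvenile mice. They encode 4 carbonic anhydrases (Car1, Car2, Car4, Car12), the anion transporters Slc26a3, Slc26a2 and Cftr, the monocarboxylate transporters Slc5a8 and Slc16a1, and the water channel Aqp8. All gene probes of the array whose design accession maps to one of these symbols were taken, which gave 14 probes on 23 spots for the 10 genes, of 41174 gene probes on 43379 gene spots in all. The P90 group was scraped colonic mucosa of C57BL/6 mice at 90 postnatal days, and the P30 group was the same tissue and strain at 30 postnatal days. Total RNA of 1 P90 and 1 P30 animal was hybridised to each of 4 two-colour arrays, which the labels letter a, b, e and k and the design text calls independent comparisons. Array e is the dye swap, with P90 in Cy5, and on the other arrays P90 was in Cy3. The sex of the animals, the part of the colon scraped and whether an animal was used more than once are not given in the sources used here. The p-values and each SE given below therefore rest on the spread between these 4 pairs, with each gene's variance drawn by the test towards that of all genes. Such an SE can be smaller than the one that the SD alone would give. In scraped tissue, fewer cells of a type and less RNA per cell cannot be told apart.

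Carbonic anhydrases interconvert carbon dioxide and bicarbonate. In surface colonocytes the cytosolic enzymes Car1 and Car2 and the membrane-anchored Car4 and Car12 supply and use the bicarbonate that Slc26a3 (the chloride-bicarbonate exchanger also called DRA) trades for luminal chloride while sodium-proton exchangers take up sodium. Cftr is the cAMP-gated chloride channel of crypt cells, Slc26a2 a sulfate transporter, Slc5a8 a sodium-coupled and Slc16a1 a proton-coupled carrier of butyrate and other monocarboxylates, and Aqp8 a water channel of the absorptive surface. Car1, Car2 and several haemoglobin genes are also strongly expressed in red blood cells.

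Of the 10 genes, Car4 had a P90 signal above the P30 signal on all 4 arrays and Car2 a P90 signal below it on all 4. In the authors' deposited log ratio Car2 was below 0 on all 4 as well, but Car4 was at -0.12 on array b. For Car4 the mean log2 P90/P30 was 1.06 ± 1.13 (SD, n = 4), and for Car2 it was -0.89 ± 0.57. Slc26a3, Cftr and Car12 had means below 0 that were not shared by array b. The mean of Slc16a1 was below 0 too, but its ratio was above 0 on arrays a and b. Slc26a2 and Slc5a8 lay on both sides of 0. The spots of Aqp8 and Car1 were saturated and give no mean ratio. None of the 10 passed the test (limma's lmFit and eBayes with Benjamini-Hochberg adjustment over 20825 genes, threshold 0.05), where 0% of all genes passed. A P90 signal above P30 on all 4 arrays was found for 6.17% of all genes, and one below P30 on all 4 for 7.96%. At an unadjusted p below 0.05 there were 2 of the 10, Car2 and Car4, beside 7.88% of all genes. With the sign of array b turned the 2 genes were Car12 and Cftr, beside 23.9% of all genes.

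The arrays stood apart in 1 respect that touches each value below. Over all probes, log2 P90/P30 on array b correlated negatively with that on array a (Pearson r = -0.303, across probes, which are not independent replicates), on e (-0.269) and on k (-0.172), while a, e and k correlated at 0.303 to 0.582 with each other. The labels give b the same dyes as a and k. The labelled direction was kept, and each unsaturated gene is also given without array b. Gene spots well above background made up 55.6% to 69.3% in the P90 channel and 64.6% to 71% in the P30 channel. Between 57 and 304 gene spots per array were saturated in the P90 channel, and between 211 and 374 in the P30 channel. As a check of the tissue, 13 of 13 colonocyte markers were measured, among them Krt8, Krt18 and Lgals4, saturated in both channels on every array, with a summed normalized signal of 524645 to 717819 at P90 and of 500150 to 595787 at P30. Spots at the ceiling hold much of that sum, so it cannot compare the ages. Of the 6 markers not saturated on all 4 arrays of an age, 3 had a mean above 0 and 3 below, with a median of -0.042. All 4 arrays were on 1 slide and scanned on 1 day, so there was no batch to test. With 4 arrays, their number limits the precision of every value.

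The promoters of 3 of the genes are shown because these genes had the largest SD of log2 P90/P30 between arrays. The sequences are RefSeq promoters of build GRCm38.p6, from 250 bases before to 50 bases after the annotated start on the plus strand. Car4 lies at chr11:84957504-84957803, Slc26a3 at chr12:31437969-31438268 and Slc16a1 at chr3:104638414-104638713. Capitals mark matches, on either strand, to 6 motifs that were searched: the CDX core TTTAT, the GATA motif AGATAA, the HNF4 core CAAAGTC, the HNF1 core GTTAAT, the Sp/KLF box GGGCGG and the TATA box TATAAA.
Car4 promoter: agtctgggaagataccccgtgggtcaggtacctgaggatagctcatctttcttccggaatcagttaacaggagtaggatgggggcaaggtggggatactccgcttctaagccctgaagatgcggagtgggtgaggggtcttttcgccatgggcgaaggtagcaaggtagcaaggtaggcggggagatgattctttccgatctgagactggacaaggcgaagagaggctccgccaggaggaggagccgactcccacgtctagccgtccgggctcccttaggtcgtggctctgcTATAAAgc
Slc26a3 promoter: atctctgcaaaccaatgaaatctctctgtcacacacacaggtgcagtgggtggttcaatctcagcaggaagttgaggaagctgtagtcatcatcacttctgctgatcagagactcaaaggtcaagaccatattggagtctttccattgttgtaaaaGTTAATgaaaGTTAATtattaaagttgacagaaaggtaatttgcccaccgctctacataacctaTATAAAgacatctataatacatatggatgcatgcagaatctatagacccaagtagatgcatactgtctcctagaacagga
Slc16a1 promoter: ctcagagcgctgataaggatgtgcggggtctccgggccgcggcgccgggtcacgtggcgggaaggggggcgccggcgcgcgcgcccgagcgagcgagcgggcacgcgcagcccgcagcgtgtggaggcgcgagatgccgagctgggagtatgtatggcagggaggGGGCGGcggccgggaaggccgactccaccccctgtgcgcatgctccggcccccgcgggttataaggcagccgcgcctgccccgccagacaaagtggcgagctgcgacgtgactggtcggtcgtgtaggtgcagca
The Slc26a3 window held a TATA box match at position -30, counted from the annotated start, and 2 HNF1 cores at -94 and -84. The Car4 window held a TATA box match at 43 after the annotated start. Both of these TATA matches overlap a CDX core match on the other strand. Any TATAAA contains ATAAA, the reverse complement of TTTAT, so this overlap is fixed by the letters. The Slc16a1 window held 1 Sp/KLF box at -85 and no match to the other 5 motifs. Its G and C content was 73.7%, against 57.3% for Car4 and 39.3% for Slc26a3, with a median of 52.7% over 27025 promoters of the same length. Of these promoters 7.2% held an HNF1 core, 14.2% a TATA box, 40.9% a CDX core, 35.9% an Sp/KLF box, 11.4% a GATA motif and 4.36% an HNF4 core. Of the 10 genes, 7 had a promoter that was searched. In Cftr, with a G and C content of 71.3%, there were 6 Sp/KLF boxes, and in Aqp8 a CDX core at -6. Slc5a8 had Sp/KLF boxes at -154, -145 and -18 and a CDX core at -82, and Car12 had an Sp/KLF box at -35. A match describes the letters and not a binding site.

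Car4 anchors on the outer face of the apical membrane and hydrates carbon dioxide there. Its normalized signal (background-corrected, after loess and scaling between arrays, in linear units) was 45221 at P90 against 9071 at P30 on array a. It was 10465 against 9083 on array b, 17313 against 5246 on array e and 8889 against 8809 on array k. The P90 signal was high on a and e, while on b and k the ages differed little. P90 over P30 was 4.99-fold on array a, 1.15-fold on b, 3.30-fold on e and 1.01-fold on k. The mean log2 of 1.06 had an SE of 0.43 (limma, variance drawn towards that of all genes) and an adjusted p of 0.627. Its SD of 1.13 lay at the 96.2 percentile of all genes, whose median SD was 0.35. Without array a the mean was 0.65, and without array b it was 1.35 (adjusted p = 0.184). The dye swap, array e, read 1.72, and arrays a, b and k, with the dyes the other way round, read 2.32, 0.20 and 0.013.

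Car2, the abundant cytosolic isoform, had a P90 signal of 22467 against 53134 at P30 on array a. It read 35219 against 44664 on array b, 24952 against 34492 on array e and 14541 against 40885 on array k. Every P90 value was below its P30 partner, as for 7.96% of all genes. The mean log2 P90/P30 was -0.89 with an SE of 0.23 (unadjusted p = 0.010, adjusted p = 0.618, limma). It was -1.07 without array b (adjusted p = 0.102) and -0.68 without array k, and with array b turned it had an unadjusted limma p of 0.066. On array a the P30 spot read 65165 against a Cy5 ceiling of 65507, without being marked as saturated, so that this ratio may be understated. Values of 3 erythroid markers, Hbb-bt, Hba-a1 and Alas2, were set beside Car2. Their summed signal was 6197 to 22777 at P90 and 6508 to 31778 at P30, with array medians of log2 P90/P30 of 0.57 on array a, 0.42 on array b, -0.33 on array e and -1.98 on array k. On array k erythroid genes and Car2 were both below 0, and on array a erythroid genes were above 0 and Car2 was at -1.24; their part in the Car2 value was not tested.

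Car12 is a transmembrane isoform with its active site outside the cell. Its brighter probe gave 880 at P90 against 2350 at P30 on array a, 2411 against 1739 on b, 723 against 1019 on e and 1521 against 3074 on k. Arrays a, e and k were lower at P90 and array b was higher. The mean log2 P90/P30 was -0.61 ± 0.82 (SD, n = 4, adjusted p = 0.65). It was -0.98 without array b (adjusted p = 0.101) and -0.35 without array a. The second Car12 probe was dim, with scanner signals of 69 to 195 at P90 and of 97.5 to 202 at P30, and its mean was -0.035, with -0.077 on array a, 0.18 on array b, 0.031 on array e and -0.28 on array k. The offset of 50 added in the background correction draws ratios of so dim a probe towards 0. The authors' deposited log ratio of that probe, turned to log2 P90/P30, was -0.77 on array a, 0.44 on array b, -0.12 on array e and -0.71 on array k.

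**Figure D1:**
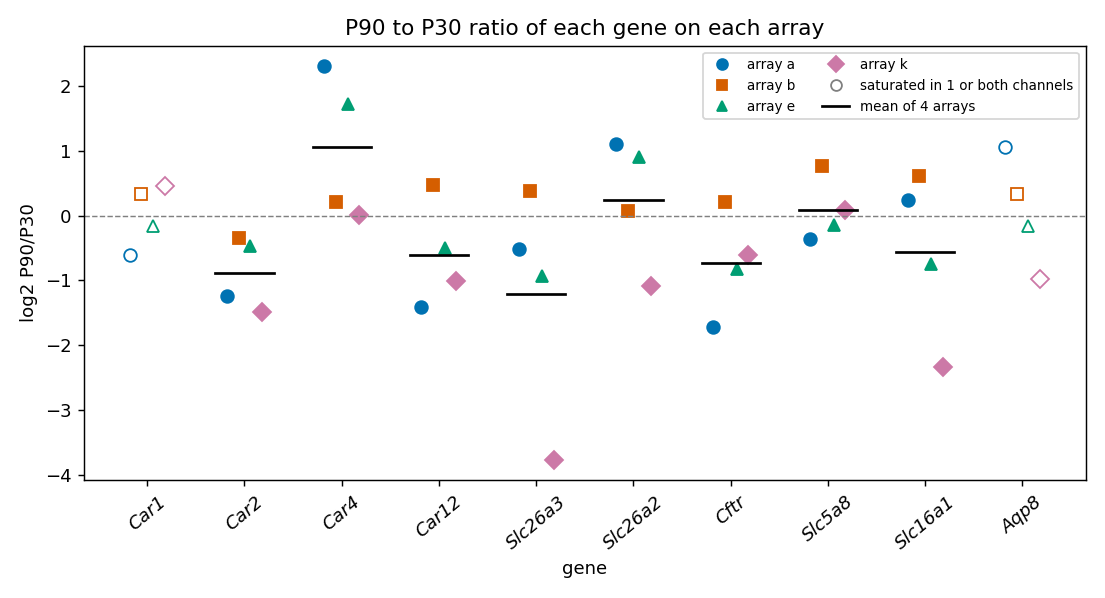
Log2 P90/P30 (vertical axis) of the probe that stands for each of the 10 genes on arrays a, b, e and k, with black bars for the mean of 4 arrays and open symbols for spots saturated in 1 or both channels, for which no mean is drawn. At this normalization Car4 lies above 0 and Car2 below 0 on every array (Car4 is at -0.12 on b in the deposited log ratio), and Slc26a3 reaches -3.78 on array k.

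Car1 is the isoform that marks colonic surface cells. Its P30 spot was saturated on all 4 arrays and its P90 spot on arrays b and e. On b and e the ratio is therefore that of the ceilings, as shown by Krt8, a keratin saturated in both channels throughout: Car1 read 0.33 on b and -0.15 on e, and Krt8 read 0.33 and -0.15. On array a the P90 spot read 19294 against the P30 ceiling of 65507, which after normalization puts log2 P90/P30 at -0.61 or below, P30 being at least 1.53-fold higher. In the deposited log ratio the same spot was at 0.059 or below, so at that scaling both directions remain possible. On array k the P90 spot read 52760.5, which puts log2 P90/P30 at 0.45 or below and leaves both directions possible.

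Aqp8 was saturated in the P30 channel on all 4 arrays and in the P90 channel on a, b and e. There it gave 1.06, 0.33 and -0.15, again the values of Krt8. Only array k measured it at P90, with a scanner signal of 19435 against the P30 ceiling of 65507, so that on this array P30 was at least 1.96-fold higher. The deposited log ratio put it at -0.69 or below there. For Car1 and Aqp8 the mean of the ceiling ratios is no measure of the genes and is left out of the counts over the set. A fold given as a bound rests on Cy3 and Cy5 channels set to a common scale and on a single dye orientation.

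Slc26a3 is the main route of chloride absorption in exchange for bicarbonate. It had a normalized signal of 8228 at P90 against 11790 at P30 on array a, 5415 against 4150 on b, 2435 against 4641 on e and 676 against 9289 on k. The P90 signal of array k was the lowest of the 8 values, and P30 was 13.7-fold higher there. On the other 3 arrays the ratio was no larger than 1.91-fold in either direction. The mean log2 P90/P30 of -1.21 ± 1.80 (SD, n = 4, adjusted p = 0.661) was the lowest of the 10 genes. It was -0.36 without array k and -1.74 without array b (adjusted p = 0.219), so array k decides its size. Its SD was at the 99.4 percentile of all genes.

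Slc16a1 carries monocarboxylates with a proton and also had its lowest ratio on array k. The probe of highest intensity gave 32664 at P90 against 27676 at P30 on a, 30589 against 19938 on b, 17376 against 29136 on e and 8518 against 43288 on k. Arrays a and b were higher at P90 and arrays e and k lower. Its 3 probes agreed in sign on every array, with values of 0.22 to 0.36 on a, 0.53 to 0.83 on b, -0.75 to -0.27 on e and -2.35 to -1.58 on k. For the brightest probe the mean log2 P90/P30 was -0.56 ± 1.32 (SD, n = 4, adjusted p = 0.804), with 0.037 without array k and -0.95 without array b.

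Several genes outside the 10 were also far below 0 on array k, and were picked after their values were seen. Apoa1, an apolipoprotein of small intestinal enterocytes, read -4.04 on k and between -0.079 and 0.23 on the other arrays. Fabp6, the ileal bile acid binding protein, read -2.24 on k, and Pdzk1, a scaffold that binds apical transporters, read -3.18. The small intestinal list had 8 of 8 members measured, a summed signal of 1630 to 3491 at P90 and of 1489 to 9632 at P30, and array medians of 0.059 on array a, 0.010 on array b, -0.046 on array e and -0.97 on array k. Of the 8, 2 had a mean above 0 and 6 below. Fabp1, the liver-type fatty acid binding protein, was above 0 on every array, at 2.79 on array a, 1.28 on array b, 1.07 on array e and 0.28 on array k. Rbp2, a retinol binding protein of enterocytes, had a mean of 0.43 with -1.03 on k, Alpi, the intestinal alkaline phosphatase, had a mean of -0.69, and Lct, the lactase gene, had one of -0.047. Apoa1, Fabp6, Pdzk1 and Lct were dim, at the 35.7, 29.1, 31.2 and 0.52 percentile of mean intensity over all genes. The offset added in the background correction draws ratios of dim probes towards 0. Their values near 0 therefore do not show equal levels at P90 and P30, and the list medians on a, b and e rest in part on such probes. The part of such transcripts in the Slc26a3 and Slc16a1 values was not tested, and the values without array k are given above.

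Slc26a2, the sulfate transporter, gave 12170 at P90 against 5657 at P30 on array a, 5245 against 4966 on b, 7415 against 3960 on e and 3901 against 8304 on k. It was higher at P90 on a, b and e and lower on k. On average log2 P90/P30 was 0.25 ± 0.998 (SD, n = 4, adjusted p = 0.909), with 0.70 without array k, 0.31 without array b and -0.035 without array a. Car4 and Slc26a2 were both high on a and e, the arrays on which the distal colon gene Hoxd13 was above 0. Hoxd13 read 4.63 on array a, -4.40 on array b, 1.57 on array e and -2.41 on array k, and its second probe read 1.95, -2.90, 1.33 and -0.95. All 6 listed distal Hox genes were measured, with a summed signal of 2382 to 13819 at P90 and of 3595 to 10049 at P30. The distal Hox list had array medians of 0.76 on array a, -0.82 on array b, 0.72 on array e and -0.40 on array k. Hoxb13, Hoxd10 and Hoxd11 had the signs of Hoxd13 on every array. Hoxa13 did not, at -0.15 on array e and 0.12 on array k, nor did Hoxd12, at 0.11 on array k. Hoxd11 and Hoxd12 were dim, at the 11.6 and 3.19 percentile of mean intensity over all genes, so their signs say little. Over all probes, arrays a and e correlated at 0.582. Whether the scraped stretch of colon bears on Car4 and Slc26a2 was not tested.

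**Figure D2:**
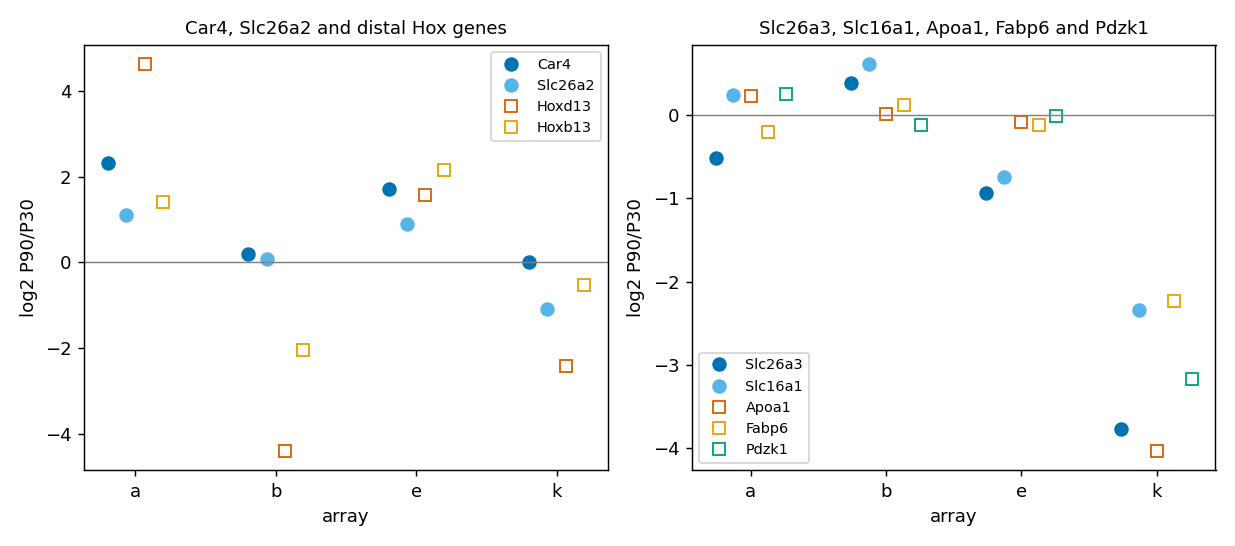
Log2 P90/P30 (vertical axis) on arrays a, b, e and k (horizontal axis) for Car4 and Slc26a2 beside Hoxd13 and Hoxb13 (left), and for Slc26a3 and Slc16a1 beside Apoa1, Fabp6 and Pdzk1 (right), with filled circles for genes of the set and open squares for the other genes. Hoxd13 is at 4.63 on a and at -4.40 on b, and all 5 genes on the right are lowest on array k.

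Cftr was measured by 10 spots of 1 probe per array. Such spots share 1 labelling and 1 hybridisation, so their spread is the error between spots only, and the spread between arrays also holds labelling and hybridisation error. The mean normalized signal was 416 at P90 against 1376 at P30 on array a, 437 against 375 on b, 281 against 495 on e and 291 against 445 on k. P90 was lower on a, e and k and higher on b. After outlier marks 9 of the 10 spots were used on a, all 10 on b, and 8 each on e and k, and log2 P90/P30 ran over them from -1.82 to -1.66 on a, from 0.16 to 0.33 on b, from -0.93 to -0.64 on e and from -0.68 to -0.55 on k. The SD between spots was 0.046 on array a, 0.050 on array b, 0.086 on array e and 0.042 on array k, against an SD of 0.80 between the arrays. The spots of the 4 arrays did not overlap between any pair of arrays except e and k. Over the 190 kept probes with such repeat spots the median SD between arrays was 0.43 and the median SD between spots 0.057 to 0.073, and in 172 of them the arrays spread more widely than the spots of any array. The mean log2 P90/P30 of Cftr was -0.73 (SE 0.31, adjusted p = 0.628), -1.05 without array b (adjusted p = 0.112) and -0.40 without array a. The second Cftr probe, with scanner signals of 55 to 91 at P90 and of 86 to 103 at P30, had a mean of -0.058 and was well above background at P90 on 3 of 4 arrays. Its deposited log ratio, turned to log2 P90/P30, was -1.48 on array a, -0.72 on array b, -0.24 on array e and -0.32 on array k, on b with the sign opposite to the repeated probe.

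The signs of Cftr, Car12 and Slc26a3, below 0 on a, e and k and above 0 on b, were also those of the fibroblast markers. Such signs were common: 27% of all genes were below 0 on a, e and k. Of the 9893 genes with a single direction there, 70.2% had the opposite direction on b. Among colonocyte markers not saturated throughout an age, Epcam, Fabp2 and Muc13 had these signs too, and Cdhr5, Cdhr2 and Cdh17 did not. All 7 of 7 listed fibroblast genes were measured and had a mean below 0, with array medians of -4.23 on array a, 1.53 on array b, -2.36 on array e and -3.21 on array k. Their summed signal was 2076 to 29742 at P90 and 10710 to 88542 at P30. None of the 7 passed the test, and their part in the Cftr, Car12 and Slc26a3 values was not tested.

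**Figure D3:**
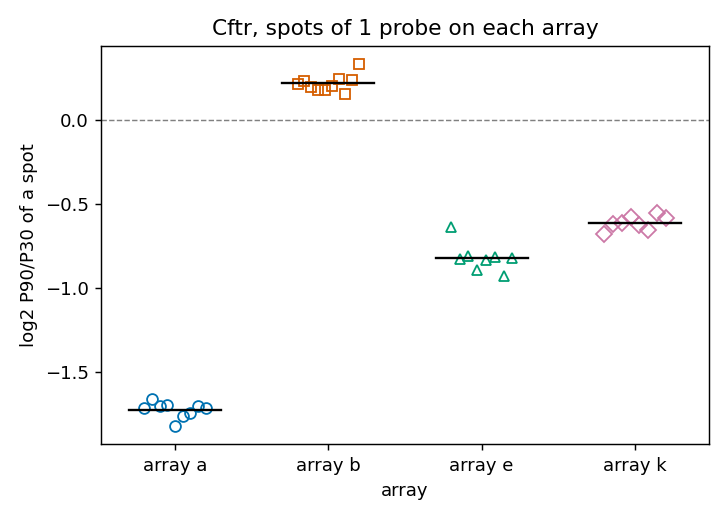
Log2 P90/P30 (vertical axis) of each spot of the repeated Cftr probe on the 4 arrays, with outlier spots left out and black bars for the array means. Spots within an array differ by no more than 0.29, while the array means run from -1.73 on a to 0.22 on b.

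Slc5a8, the sodium-coupled butyrate carrier, had the smallest spread of the unsaturated genes. Its signal was 1500 at P90 against 1929 at P30 on array a, 905 against 529 on b, 683 against 752 on e and 629 against 589 on k. Arrays a and e were lower at P90 and arrays b and k higher. Slc5a8 had a mean log2 P90/P30 of 0.092 ± 0.49 (SD, n = 4, adjusted p = 0.947), and -0.14 without array b. The SE of 0.21 leaves room for a change in either direction.

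**Figure D4:**
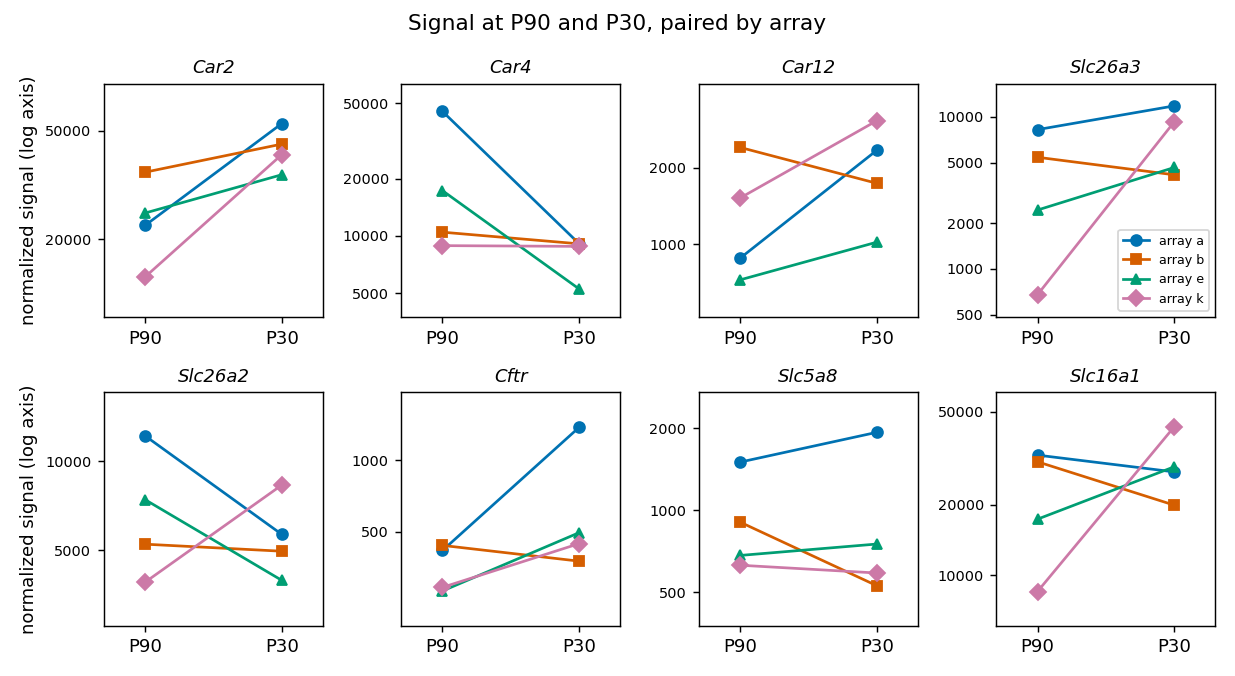
Normalized signal (log axis, linear units) at P90 and P30 of the 8 genes that were not saturated, with a line for each of the 4 arrays. All 4 Car2 lines are lower at P90 than at P30, and array k has the steepest line for Slc26a3, with 676 at P90 against 9289 at P30.

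Of the 8 genes that were not saturated, 3 had a mean above 0 and 5 below, and the median of the 8 means was -0.59, beside -0.019 over all genes. Means above 0 were found for 45.6% of all genes and means below 0 for 54.4%. A single direction on all 4 arrays was found for 2 of the 8, beside 14.1% of all genes. On arrays a, e and k 5 of the 8 had a single direction, with Car4 above 0 and Car2, Car12, Slc26a3 and Cftr below. Over all genes that share was 47.5%, with 20.5% above and 27% below. Of these 5, 3 (Car12, Slc26a3 and Cftr) had the opposite direction on b, as did 70.2% of the 9893 genes with a single direction on a, e and k. Without array b the same 5 genes had an unadjusted limma p below 0.05 and none passed adjusted, where 22.3% of all genes had such a p. With the sign of array b turned, since its direction against array a is unsettled, the mean log2 P90/P30 was 0.96 for Car4, -0.71 for Car2, -0.85 for Car12, -1.40 for Slc26a3, -0.84 for Cftr, -0.87 for Slc16a1, 0.21 for Slc26a2 and -0.30 for Slc5a8. Only Slc5a8 of these 8 changed sign against the labelled direction. Car4 and Car2 were then no longer on one side of 0 on all 4 arrays, and Car12, Slc26a3 and Cftr were then below 0 on all 4. All 8 had an SD between arrays above the median of all genes.

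**Figure D5:**
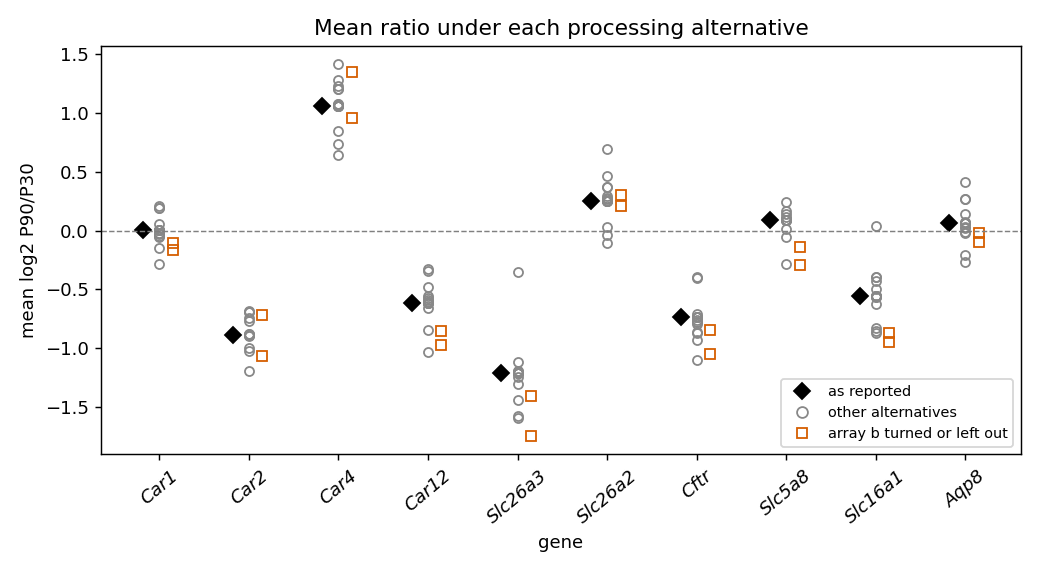
Mean log2 P90/P30 (vertical axis) of each of the 10 genes as reported (black diamonds) and under 18 processing alternatives (grey circles, or orange squares where array b was turned or left out), with Car1 and Aqp8 at their ceiling values. Car4 stays above 0, between 0.65 and 1.42, and Car2 below 0, between -1.20 and -0.68.

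Related transporters outside the 10 were read as lists, and none of their members passed the test. The other carbonic anhydrases had 9 of 12 members measured, 6 with a mean above 0 and 3 below, and a median of 0.033. Car7, a cytosolic isoform, was at -0.74 ± 0.70 (SD, n = 4) and Car13, another cytosolic isoform, at -0.37 ± 0.29, below 0 on all 4 arrays. The other anion exchangers and bicarbonate transporters had 10 of 18 measured, with 4 above and 6 below 0 and a median of -0.0054. The sodium-bicarbonate cotransporter Slc4a7 was at -0.17 ± 1.95, with 1 array saturated at each age, and its other probes were at -0.56 and -0.63. On array b its probes disagreed, at -2.78, -0.40 and 0.90. In the same list, the basolateral chloride-bicarbonate exchanger Slc4a2 was at 0.45 ± 0.48.

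The other aquaporins had 6 of 10 members measured, with 4 above and 2 below 0 and a median of 0.16. Aqp1, the water channel of vessels and red cells, was at 0.24 ± 1.15 (SD, n = 4) and Aqp11 at 0.10 ± 0.26. Of the 13 chloride channels and secretion partners 11 gave a ratio, with 4 above and 7 below 0 and a median of -0.12. Guca2a, the guanylin gene, was at the ceiling in both channels throughout and gives no ratio, and the potassium channel subunit Kcne3 was at -0.25 ± 0.67. Slc12a2, the basolateral chloride loader that works with Cftr, was named after its values were seen; it read -2.87 on array a, 0.80 on array b, -0.32 on array e and -0.21 on array k.

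The other monocarboxylate transport and fatty acid sensing genes had 7 of 10 members measured, with 3 above and 4 below 0 and a median of -0.070. Bsg, the chaperone that brings Slc16a1 to the membrane, was at 0.33 ± 0.44 (SD, n = 4) and the fatty acid receptor Ffar2 at -0.47 ± 0.89. The sodium-proton exchangers and PDZ partners had 8 of 9 measured, with 5 above and 3 below 0 and a median of 0.099. The scaffold Slc9a3r1 was at 0.25 ± 0.56, and Pdzd3 was at -0.016 ± 0.59. Between them these 6 lists had 3 of 52 measured genes at an unadjusted limma p below 0.05 (Car7, Clcn4 and Slc9a8), which is 5.77%, beside 7.88% of all genes. The 52 include Guca2a, whose value is that of the ceilings.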

How the data were processed

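Per the file headers, the deposited scanner files come from Agilent Feature Extraction, version 10.5.1.1, and hold spot intensity per channel before normalization. The submitters' processing notes name version 8.5.1.1. The deposited processed signals are background-subtracted intensities scaled by 1 factor per dye, and, per the file headers, the deposited log10 ratio has Cy5 on top. The series' deposited value table was found to hold log2 P90 over P30, since it matched that ratio within 0.01 for 80% to 87% of probes per array. Spot marks (other) were taken as deposited. Median signals were corrected with normexp (offset 50) and normalized by loess (span 0.3) in limma 3.58.1 under R 4.3.3, outlier spots left out, saturated spots kept. Probes well above background on 3 or more arrays at either age were kept (27055). They gave 20825 genes, each by its brightest probe. Probes were named by RefSeq accession (25097 of 41174). Means were tested against 0 with lmFit and eBayes and Benjamini-Hochberg adjustment. Per probe, 0% of 27055 passed. Named genes are the 10 genes, in each of the 6 transport lists the members that passed or, with none, the 2 brightest, and the 5 genes most like the unsaturated gene of largest mean; others, the marker genes among them, were chosen after their values were seen. The genes and lists were chosen with earlier results of these data known. The 18 alternatives concern background, normalization, filters, probes, saturation, dye, array b, spread and each array left out.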

Additional observations from a re-analysis of the deposited data

How the results depend on the processing

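No gene of the 10 passed the test in any of the 18 alternatives, the smallest adjusted p being 0.0909 for Car12 with array b turned. Over all genes 2 passed, and over all probes 3, with the normexp offset of 10, with processed signals before loess, with the deposited log ratio and with the series' value table, against 0 as reported and 0 in the remaining alternatives, where 681 to 4975 genes had an unadjusted limma p below 0.05. Car2, Car12, Slc26a3 and Cftr kept a mean below 0 and Car4 one above 0 in all 18 alternatives, Car4 from 0.65 to 1.42, Car2 from -1.20 to -0.68, Slc26a3 from -1.74 to -0.36, Cftr from -1.10 to -0.40 and Car12 from -1.03 to -0.32. Over all 10 genes the mean changed sign in 21 of 178 values, 20 of them among the 70 of Car1, Aqp8, Slc5a8 and Slc26a2 and 1 of Slc16a1, and the cause was not tested. Car1, a ceiling value, was at -0.023 with the offset of 10, -0.029 with processed signals, -0.29 with median centring, -0.048 with a dye term, -0.16 with array b turned and -0.054 with array weights. Aqp8, a ceiling value too, was at -0.20 with median centring, -0.0067 with a dye term, -0.099 with array b turned and -0.021 with array weights. Slc5a8 was at -0.29 with median centring, -0.30 with array b turned and -0.054 with array weights, and Slc26a2 at -0.11 with median centring. With each array left out in turn, the mean of Car1 ran from -0.14 to 0.21, of Aqp8 from -0.26 to 0.41, of Slc5a8 from -0.14 to 0.24, of Slc26a2 from -0.035 to 0.70 and of Slc16a1 from -0.95 to 0.037, above 0 only without array k. With saturated spots left out, Car1 and Aqp8 could not be tested. The test is paired by array throughout, since each ratio sets 1 P90 sample against the P30 sample on the same array. Saturation limits Car1 and Aqp8, and dim signal limits the second probes of Car12 and Cftr.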

Other observations

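A run of carbonic anhydrase genes stands side by side on chromosome 3 in the order Car13, Car1, Car3 and Car2 (RefSeq, GRCm38.p6). Their mean log2 P90/P30 differed in sign: Car13 was at -0.37 ± 0.29 (SD, n = 4), Car3 at 1.99 ± 2.54 and Car2 at -0.89 ± 0.57, with Car1 saturated. Car3, an isoform abundant in fat and muscle, read -0.15 on array a, 2.35 on array b, 5.43 on array e and 0.33 on array k. Adipocyte markers had 8 of 9 members measured (Lep was not well above background), a summed signal of 6410 to 196511 at P90 and of 3805 to 12763 at P30, and array medians of 0.15 on array a, 2.20 on array b, 5.45 on array e and 0.45 on array k, a list that includes Car3. Their part in the Car3 value was not tested.

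The pattern of Slc26a3 over the 4 arrays was set against that of 13904 genes with a symbol. By root mean square distance the most similar were Mal at 0.34 log2 units, Anpep at 0.42, Bcl2l15 at 0.48, Apoa1 at 0.61 and Pls3 at 0.63. Mal, a membrane protein of apical sorting, read -3.54 on array k, and Anpep, the brush border aminopeptidase N, read -4.07. The choice of genes fixed that they were low on array k.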
